A study of Ptychidio jordani with 7 samples.

Results

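The genes described here encode zona pellucida (ZP) proteins, the building blocks of the coat around the fish egg, in the ratmouth barbel, the cyprinid fish Ptychidio jordani. They were chosen by a rule on annotation: a gene name of the ZP series, or a protein description that contains the words zona pellucida sperm-binding protein. This gave 42 genes of 26107 in the deposited table. Of these, 18 met both criteria, 23 met the name alone and 1 met the description alone. The rule and the gene lists used below were set with earlier results of these data known. RNA from whole tissue was sequenced for muscle, kidney, caudal fin, spleen, heart, liver and gill, with 1 sample per tissue and no treatment named in the labels. The labels name the tissue and no sex, age or individual. The values are FPKM, fragments per kilobase of transcript relative to all fragments mapped in that library. With 1 sample per tissue replicate spread could not be measured, and neither p-values nor errors are given. The table carries no read totals, so the depth behind each value is unknown.

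ZP proteins are secreted by the growing oocyte in mammals and in carp-like fishes such as the zebrafish, and assemble through a shared domain into filaments around the egg. In some other teleosts, such as medaka and the salmonids, part of the coat proteins is made in the liver under estrogen and carried to the ovary in the blood. ZP3 polymerises together with members of the ZP1, ZP2 and ZP4 groups. In mouse, ZP2 is the part to which sperm bind. Carp-like fishes carry many more copies of these genes than mammals do. No ovary library is among the 7 samples.

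By name the 42 genes were 24 of ZP3, 13 of ZP4 and 4 of ZP2, and 1 locus had no symbol. No gene was named ZP1, but Pjo19173, named ZP4, was described as ZP1-like and assigned to ZP1 in the orthology column. The Swiss-Prot description named a zona pellucida protein for 41 of the 42. Protein descriptions most often came from related cyprinids, with Sinocyclocheilus species named for 24 genes, Labeo rohita for 16 and Onychostoma macrolepis for 11. Loci outside the named annotation made up 5 of the 42 genes and 2467 of all 26107. Among the 37 with an identifier of the named annotation, 16 fell into 7 runs of consecutive identifiers, the longest with 4 ZP3 genes (Pjo16994 to Pjo16997). Near-identical copies can share reads, and the authors' estimation may divide such reads between them, so the value of a single copy is less certain than the sum. One gene lay just outside the rule: GNG5 (Pjo01356), a G protein subunit, also carries a ZP3 description, but with a capital letter.

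The muscle and kidney libraries held markers of the tissue they are labelled with. Of 29 genes in the skeletal muscle list, 25 were highest in muscle, against 24.2% of all genes. Of 34 in the kidney tubule list, 20 were highest in kidney, against 17.9% of all genes. One sample, named here the library labelled spleen, stood close to liver: across all genes the Spearman correlation of these libraries was 0.929. The liver yolk precursor gene vtg1 (Pjo21814) was 30655 FPKM in the library labelled spleen and 47063 FPKM in liver. Values of FPKM are relative to the whole library, and scaling between libraries moves them. On the log2 scale the median-of-ratios factor was 1.05 for kidney, -1.13 for the library labelled spleen and -1.89 for liver. Scaled values are given beside several of the statements that they change. All other values, and all levels given as a percent of muscle, are as deposited.

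The egg coat genes were most abundant in muscle, then in kidney, and as deposited formed a falling series over the other libraries. Their summed FPKM was 75628 in muscle and 42874 in kidney. It was 8627 in fin, with the library labelled spleen at 3889, heart at 2308, liver at 596 and gill at 37.6. The sums thus fell at each step of that series, most steeply from liver to gill. As a share of all FPKM in the library the family made up 10.8% in muscle, 5.60% in kidney and 1.21% in fin, with the library labelled spleen at 0.631%. The share was 0.336% in heart, 0.108% in liver and 0.00566% in gill. Among the 100 most abundant genes of a library, out of 26107, 20 were egg coat genes in muscle, 16 in kidney and 1 in fin. The count was 0 for the library labelled spleen, heart, liver and gill. In a tissue sample, more cells of a type and more RNA per cell cannot be told apart.

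The median egg coat gene was far above the median of all genes in most libraries and below it in gill. The median over the 42 genes was 652 FPKM in muscle, against 1.71 FPKM for all genes. In kidney the family median was 413 FPKM, against 2.54 for all genes, and in fin 72.0, against 2.83. In the library labelled spleen it was 35.3, against 0.55, in heart 18.3, against 0.88, and in liver 4.86, against 0.29. Gill differed from the rest, with a family median of 0.56 FPKM, against 2.40 for all genes. At a minimum of 1 FPKM, 40 of 42 egg coat genes were detected in muscle, where 55.6% of all genes were. The count was 41 in kidney (61.3% of all genes) and 40 in fin (64.4%). It was 40 for the library labelled spleen (42.2%), 36 for heart (48.4%), 30 for liver (33.8%) and 12 for gill (62.1%).

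**Figure D1:**
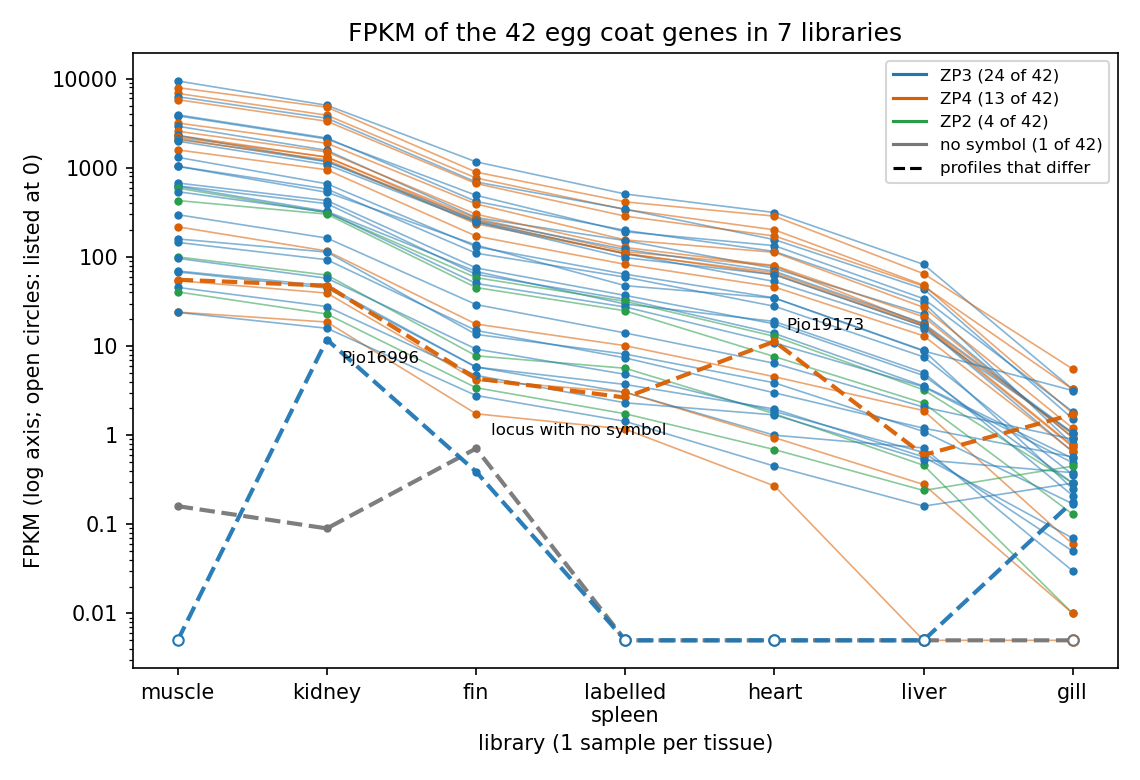
FPKM of each egg coat gene (log axis) in the 7 libraries, 1 line per gene, coloured by name, with open circles for values listed at 0. Most lines run nearly parallel, with 40 of 42 genes highest in muscle, and the 3 dashed lines mark Pjo19173, Pjo16996 and the locus with no symbol.

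Nearly all members followed the same order of tissues. Muscle was the highest library for 40 of the 42, against 24.2% of all genes. The order muscle, kidney, fin, library labelled spleen, heart and liver held in 39 of the 42, against 7.56% of all genes, and gill was last as well in 36, against 1.69%. This order was read from the values and is a description. The place of fin depends on scaling: after median-of-ratios scaling 40 of the 42 genes were higher in the library labelled spleen than in fin, and 42.1% of all genes were. Muscle remained the highest library in 40 of 42 under that scaling, against 27.6% of all genes. The full order of the 6 libraries held in 0 of 42 after scaling, against 1.97% of all genes. As deposited, the exceptions to the order were Pjo19173, Pjo16996 and the locus with no symbol.

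ZP3, the most numerous group, held 24 copies that differed widely in level. The most abundant egg coat gene of all was a ZP3 locus outside the named annotation, at 9431 FPKM in muscle and 5029 in kidney. The same locus was 1168 in fin, with the library labelled spleen at 508, heart at 315, liver at 82.5 and gill at 3.27. Kidney lay closest to muscle for this gene, and gill was far below every other library. ZP3 Pjo16995 was 6278 FPKM in muscle and 3600 in kidney, with fin at 694, the library labelled spleen at 344, heart at 156, liver at 43.9 and gill at 1.53. ZP3 Pjo03368 was 3932 in muscle and 2159 in kidney, with fin at 420.0, the library labelled spleen at 199, heart at 115, liver at 30.6 and gill at 0.79. ZP3 Pjo17005 was 3832 in muscle and 2105 in kidney, with fin at 492, the library labelled spleen at 192, heart at 134, liver at 34.1 and gill at 1.84. These 3 copies kept the same order of libraries as the leading locus. ZP3 Pjo19985 was 2928 in muscle and 1571 in kidney, with fin at 277, the library labelled spleen at 153, heart at 74.4, liver at 22.8 and gill at 0.94. At the low end, Zp3 Pjo13776 was 23.9 in muscle and 15.9 in kidney, with fin at 2.79, the library labelled spleen at 1.43, heart at 0.45, liver at 0.16 and gill at 0.29, so gill was not the lowest library for it.

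ZP4 genes, fewer in number, were on the whole more abundant per copy than ZP3 genes: the median over 13 ZP4 genes in muscle was 2204 FPKM, against 652 over 24 ZP3 genes and 265 over 4 ZP2 genes. ZP4 Pjo20597 was 7937 FPKM in muscle and 4787 in kidney, with fin at 895, the library labelled spleen at 415, heart at 287, liver at 64.9 and gill at 5.53, the highest egg coat value of the gill library. ZP4 Pjo20598 was 6840.2 in muscle and 3896 in kidney, with fin at 769, the library labelled spleen at 340.2, heart at 202, liver at 48.3 and gill at 1.76. These identifiers are consecutive, and the levels were within 1.16-fold of each other in muscle. ZP4 Pjo02406 was 5814 in muscle and 3332 in kidney, with fin at 667, the library labelled spleen at 287, heart at 172, liver at 47.1 and gill at 3.27. Another ZP4 locus, outside the named annotation, was 3185 in muscle and 1886 in kidney, with fin at 393, the library labelled spleen at 155, heart at 113, liver at 27.2 and gill at 1.20. ZP4 Pjo03689 was 2572 in muscle and 1508 in kidney, with fin at 302, the library labelled spleen at 128, heart at 80.1, liver at 21.3 and gill at 0.94. Consecutive identifiers did not always go with like levels: Pjo03368 and Pjo03369, both ZP3, were 3932 and 676 FPKM in muscle, a 5.82-fold difference, while Pjo04947 and Pjo04948 were 69.6 and 68.0.

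ZP2 genes were the least abundant of the named groups. ZP2 Pjo20421 was 592 FPKM in muscle and 314 in kidney, with fin at 58.6, the library labelled spleen at 31.8, heart at 12.9, liver at 3.23 and gill at 0.29. ZP2 Pjo08148 was 430 in muscle and 302 in kidney, with fin at 45.4, the library labelled spleen at 24.9, heart at 7.62, liver at 2.29 and gill at 0.13. The other members of the group, Pjo19935 and Pjo19772, were 100.1 and 40.5 FPKM in muscle.

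The makeup of the egg coat signal hardly changed between libraries, although the sums ran from 37.6 to 75628 FPKM. ZP3 genes held 52.3% of the summed egg coat FPKM in muscle, 50.7% in kidney and 52.5% in fin, with the library labelled spleen at 53.2%. They held 50.2% in heart, 52.6% in liver and 50.7% in gill. ZP4 genes held between 45.2% (library labelled spleen) and 48.8% (heart). ZP2 genes held 1.54% in muscle, 1.64% in kidney, 1.34% in fin, with the library labelled spleen at 1.65%, heart at 0.993%, liver at 1.04% and gill at 2.34%. The 10 most abundant members of each library held 69.7% of the family sum in muscle and 69.7% in kidney, 71.6% in heart and 64.7% in gill. These are shares within a library, so scaling between libraries leaves them as they are.

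**Figure D2:**
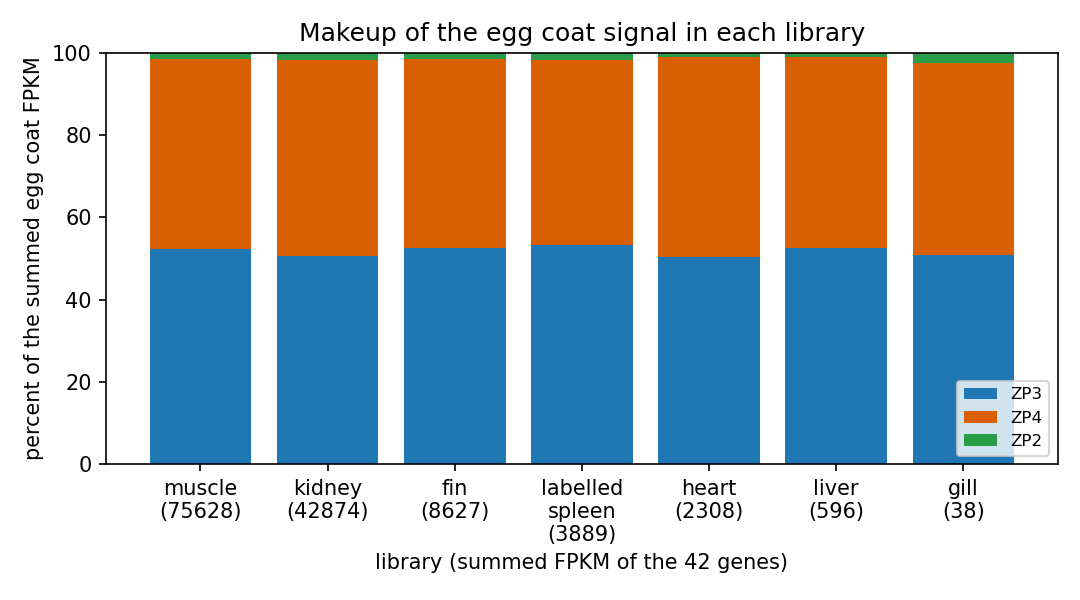
Share of ZP3, ZP4 and ZP2 genes in the summed FPKM of the 42 egg coat genes (stacked bars, percent) in each library, with the sum in brackets. ZP3 holds 50.2% to 53.2% and ZP4 45.2% to 48.8% in all 7 libraries.

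The order of the members by level was also shared. The Spearman correlation across the 42 genes, which are not independent of each other and come from the same 7 libraries, was 0.998 between muscle and kidney, where across all genes it was 0.894. It was 0.998 between muscle and fin (0.696 across all genes), 0.998 between muscle and the library labelled spleen (0.735), 0.987 between muscle and heart (0.711) and 0.995 between muscle and liver (0.629). Between muscle and gill it was 0.780 (0.543 across all genes).

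Most members stood in nearly the same ratio to its own muscle level. Over the 41 genes above 0 in muscle, the median level in kidney was 58.6% of that in muscle (quartiles 54.9% and 63.1%), while over all 23550 genes above 0 in muscle the quartiles were 75.7% and 186%. In fin the family median was 10.7% (quartiles 9.46% and 11.5%), against quartiles of 28.6% and 371% over all genes. In the library labelled spleen it was 5.06% (quartiles 4.88% and 5.33%), against 5.92% and 61.1% over all genes. Most of the genes used for reference were far lower in level than the family, and no set matched for level was compared. Heart stood at 2.65%, liver at 0.779% and gill at 0.0429% of muscle. Without Pjo19173 and the locus with no symbol, the ratio of the library labelled spleen to muscle lay between 4.29% and 5.99% in all 39 genes, a 1.39-fold span, although muscle levels spanned 395-fold over the 40 genes of at least 10 FPKM there. The span was 1.54-fold for kidney, 1.81-fold for fin and 3.30-fold for heart. These percents are as deposited. Scaling multiplies all percents of a library by the same factor, so it moves their level but not their span.

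**Figure D3:**
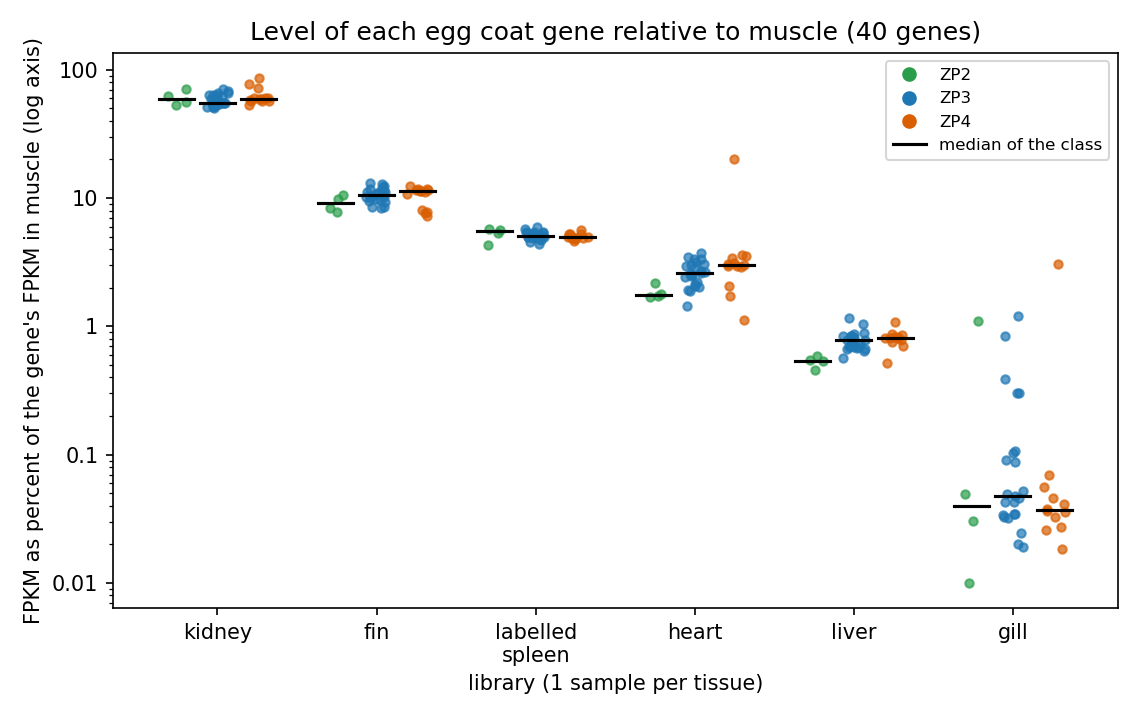
Level of each egg coat gene in 6 libraries as a percent of its own FPKM in muscle (log axis), for the 40 genes of at least 10 FPKM in muscle, by name, with black lines for the median of each name. Values are as deposited, and those listed at 0 (Pjo10232 in liver and gill) are not drawn. The points lie close together in kidney, fin and the library labelled spleen and are widely scattered in gill.

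Small departures from a single ratio went with level. In the upper 21 genes by mean FPKM over all libraries, kidney stood at a median of 57.0% of muscle, fin at 11.3%, heart at 2.998% and liver at 0.787%. In the lower 21, of which 20 were above 0 in muscle, the medians were 62.8% for kidney, 9.47% for fin, 2.03% for heart and 0.666% for liver. Gill went the other way from fin, heart and liver, at 0.0365% in the upper set and 0.0697% in the lower, with most of its values below 1 FPKM. The library labelled spleen was alike in both sets, at 5.06% and 5.07%. By name, heart stood at 1.76% of muscle over 4 ZP2 genes, 2.62% over 23 ZP3 genes and 3.02% over 13 ZP4 genes, and liver at 0.539%, 0.779% and 0.809%. ZP2 genes were also the lower in level, and the parts of name and level were not tested.

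Muscle and kidney, the libraries richest in egg coat genes, differed from each other by less than 2-fold in all but 1 member. With a limit of 2-fold on the FPKM + 1 scale and at least 10 FPKM in the higher library, 0 of the 42 genes were called higher in muscle (1.7% of all genes) and 1 was called higher in kidney (3.67% of all genes). The median log2 ratio of muscle over kidney was 0.76, against -0.03 over all genes. The largest ratio of muscle over kidney belonged to ZP3 Pjo17395, at 1.98, and it had 1313 FPKM in muscle and 662 in kidney, with fin at 130.4, the library labelled spleen at 64.1, heart at 34.7, liver at 8.94 and gill at 0.25. After median-of-ratios scaling 32 of the 42 passed the 2-fold limit in muscle, against 3.36% of all genes, so the size of this difference depends on the scaling, while muscle stayed the higher of these libraries. Without scaling, a limit of 1.5-fold gave 33 of 42, against 4.53% of all genes.

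Set against the other libraries, both muscle and kidney were at least 5-fold above any of the rest in 27 of 42 genes, with at least 10 FPKM in both, against 2.06% of all genes. Fin set this count: without the fin library 39 of 42 passed, against 5.61% of all genes. As deposited, kidney was at least 5-fold above fin in 29 of 42 (3.46% of all genes). Scaling lowered the median log2 ratio of kidney over fin from 2.39 to 2.08, and that count was not repeated after scaling. At a limit of 10-fold 0 passed, against 0.0192% of all genes. Muscle was at least 5-fold above fin in 40 of 42 (5.39% of all genes), and in 40 of 42 after scaling (4.75%). It was at least 5-fold above heart in 39 of 42 (12.2%), and kidney was so in 40 of 42 (11.9%). No member passed in both muscle and kidney after median-of-ratios scaling, where 0.00766% of all genes did, since this scaling raises the library labelled spleen relative to kidney.

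Lower in the series, libraries also differed in egg coat genes. In the library labelled spleen 28 of 42 members reached the 10 FPKM that a call needs, and the share of all genes that did so was not taken. Against liver, the library labelled spleen was at least 5-fold higher in 25 of 42 members, against 0.536% of all genes, and no member was called higher in liver (0.0345% of all genes). The median log2 ratio was 2.51, against 0.10 over all genes. Median-of-ratios scaling lowered that count to 3 of 42 (0.36% of all genes) and the median log2 ratio to 1.86. Fin was at least 5-fold above gill in 30 of 42 members, against 2.41% of all genes, and no member was called higher in gill (2.11%). The 30 were all the members of at least 10 FPKM in fin. In gill no member reached 10 FPKM, so none could be called higher there. After scaling 28 of 42 passed in fin, against 1.68% of all genes.

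A few members did not share the common profile. Pjo19173, the ZP4 gene described as ZP1-like, was 55.5 FPKM in muscle and 47.7 in kidney, with fin at 4.33, the library labelled spleen at 2.65, heart at 11.3, liver at 0.60 and gill at 1.71. Its heart level was 20.3% of its muscle level, where the other genes above 10 FPKM in muscle lay between 1.12% and 3.71%, and its muscle level was only 1.16 times its kidney level, the lowest ratio of these genes. Its gill level was 3.08% of its muscle level, the highest among them. ZP3 Pjo16996 was 11.8 FPKM in kidney, 0.39 in fin and 0.18 in gill, and was listed at 0 in muscle, the library labelled spleen, heart and liver. The genes with neighbouring identifiers, Pjo16995 and Pjo16997, were 6278 and 2129 FPKM in muscle, and Pjo16996 has the same protein description as Pjo16997. How reads were divided among these copies was not tested. The locus with no symbol was 0.16 FPKM in muscle, 0.09 in kidney and 0.71 in fin, and was listed at 0 in the others. It was the only member below 1 FPKM in every library and the only one highest in fin, where 18.9% of all genes were highest.

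Gill was the library in which members differed most. Besides Pjo20597 at 5.53 FPKM, the values above 3 were those of the leading ZP3 locus and Pjo02406, both at 3.27, and of ZP3 Pjo20242 at 3.17. Pjo20242, chosen after its values were seen, was 1039 in muscle and 531 in kidney, so that gill stood at 0.305% of muscle, against the family median of 0.0429%. Most other gill values were below 1 FPKM, where the counting error is unknown.

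Other genes of the egg were compared from lists of gene names. The oocyte and germ line list, which names oocyte transcription factors (FIGLA, which switches on ZP genes in mouse, NOBOX and LHX8) and secreted oocyte factors (GDF9, BMP15), had 16 genes in the table for 14 of its 28 names. Of these, 13 were highest in muscle, against 24.2% of all genes. As deposited, 8 were at least 5-fold higher in muscle and kidney than elsewhere, against 2.06% of all genes. After median-of-ratios scaling only 0.00766% of all genes met this 5-fold rule, and the oocyte count was not repeated. The summed FPKM of the 16 genes stood at 60.0% of muscle in kidney, 11.7% in fin, with the library labelled spleen at 5.35%, heart at 2.76%, liver at 0.764% and gill at 0.289%. The egg coat sums stood at 56.7%, 11.4%, 5.14%, 3.05%, 0.787% and 0.0498% in the same order. Both copies of zar1, a maternal RNA-binding factor, gave most of the sum of the oocyte list: zar1 Pjo10830 was 1137 FPKM in muscle, 612 in kidney, 132 in fin and 0.37 in gill, and Pjo19741 was 1011 in muscle, 537 in kidney, 113 in fin and 0.42 in gill. Outside gill the percents of the oocyte sum therefore mostly reflect zar1, and the list was not summed without it. Less abundant list genes differed in their ratio: buc (Pjo01733) was 102.2 in muscle and 79.96 in kidney, and NANOS3 (Pjo00186) 62.5 and 31.5. wee2 (Pjo18237), an oocyte kinase, was 223 in muscle and 174 in kidney, and BMP15 (Pjo07570) was 184 in muscle and 131 in kidney. As deposited, FIGLA (Pjo05925) was 26.7 in muscle and 28.5 in kidney, and Nobox (Pjo19584) 11.4 in muscle and 11.5 in kidney, so both were about level. LHX8 (Pjo01485) was 142 in muscle and 93.4 in kidney, and so lower in kidney, as most ZP genes were. Median-of-ratios scaling raises muscle relative to kidney, and these ratios were not taken after scaling. The 3 factors, buc and NANOS3 were named with their values known. The summed FPKM of the oocyte list ran from 9.21 in gill to 3189 in muscle. In gill 1 gene, LHX8 (Pjo01485), held 5.72 of that sum, and without it the oocyte list stood at 0.115% of muscle in gill. Of its 16 genes, 1 was listed at 0 in both muscle and kidney, a second LHX8 locus (Pjo09250). Germ line genes that were picked after their values were seen followed the series too: DDX4 (Pjo11286), the germ cell helicase Vasa, was 126 in muscle, 92.9 in kidney, 13.4 in fin and 0.07 in gill, and dazl (Pjo19069), a germ cell RNA-binding protein, was 50.4 in muscle, 42.02 in kidney and 6.10 in fin, and listed at 0 in gill. The values of these lists are given beside the egg coat genes, and their part in the egg coat levels was not tested.

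Genes of the cells around the oocyte were low in sum, and their sum did not follow the same series. Of 31 genes in the ovarian follicle cell list, 10 had their highest level in muscle, against 24.2% of all genes, and 10 in gill, against 23.1%. These counts lie not far above those of all genes. The 5-fold rule for muscle and kidney was met by 0 of 31, against 2.06% of all genes. The rule needs at least 10 FPKM in both libraries, and the list median was 1.31 in muscle and 0.27 in kidney. Only NR5A2 (Pjo03006), INHA (Pjo06503) and KITLG (Pjo24726) reached that level in both, so most of the list could not meet the rule. The summed FPKM of the list was 129 in muscle and 89.5 in kidney, with fin at 81.6, the library labelled spleen at 30.5, heart at 17.8, liver at 24.0 and gill at 103. NR5A2 (Pjo03006), an orphan nuclear receptor, was 36.0 in muscle, 21.1 in kidney, 3.84 in fin and 0.05 in gill. Its remaining values were 7.04 (library labelled spleen), 5.73 (liver) and 1.15 (heart). INHA (Pjo06503), the inhibin alpha subunit, was 23.4 in muscle, 12.8 in kidney, 3.3 in fin and 0.71 in gill. Its remaining values were 1.09 (heart), 0.79 (library labelled spleen) and 0.04 (liver). Both genes thus fell from muscle over kidney to fin, as most egg coat genes did. Neither kept the full order of the 6 libraries, which 1 of the 31 list genes kept. KITLG (Pjo24726), a ligand of the KIT receptor on germ cells, was 16.03 in muscle and 19.2 in gill, and the aromatase gene cyp19a1 (Pjo24979), which makes estrogen, was 18.5 in fin, 0.31 in muscle and listed at 0 in kidney. Of the 3 loci of FOXL2, a follicle cell transcription factor singled out after its values were seen, Pjo02371 was 1.78 in muscle, 0.45 in kidney and 16.9 in gill. Pjo22861 was listed at 0 in muscle and was 0.27 in kidney and 5.99 in gill, and Pjo15010 was 0.40 in muscle, 0.11 in kidney and 4.37 in gill. All 3 were thus highest in gill. The receptor of follicle-stimulating hormone, FSHR (Pjo12628), was 0.21 in muscle and 0.20 in kidney. Other list genes, also picked after their values were seen, went the other way from FOXL2 and were highest in muscle. A second NR5A2 locus (Pjo08747) was 6.99 in muscle, 1.39 in kidney and listed at 0 in gill. The estrogen receptor gene esr2a (Pjo19765) was 5.56, 4.31 and 0.14 in the same order, and cyp17a1 (Pjo13618) 4.61, 0.25 and 0.02. The testis list had 10 genes in the table, with a sum of 16.4 FPKM in muscle and 15.7 in kidney, of which Spag6 (Pjo23942) held 14.0 and 10.8. The other 9 testis genes were at most 1.68 in any library.

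**Figure D4:**
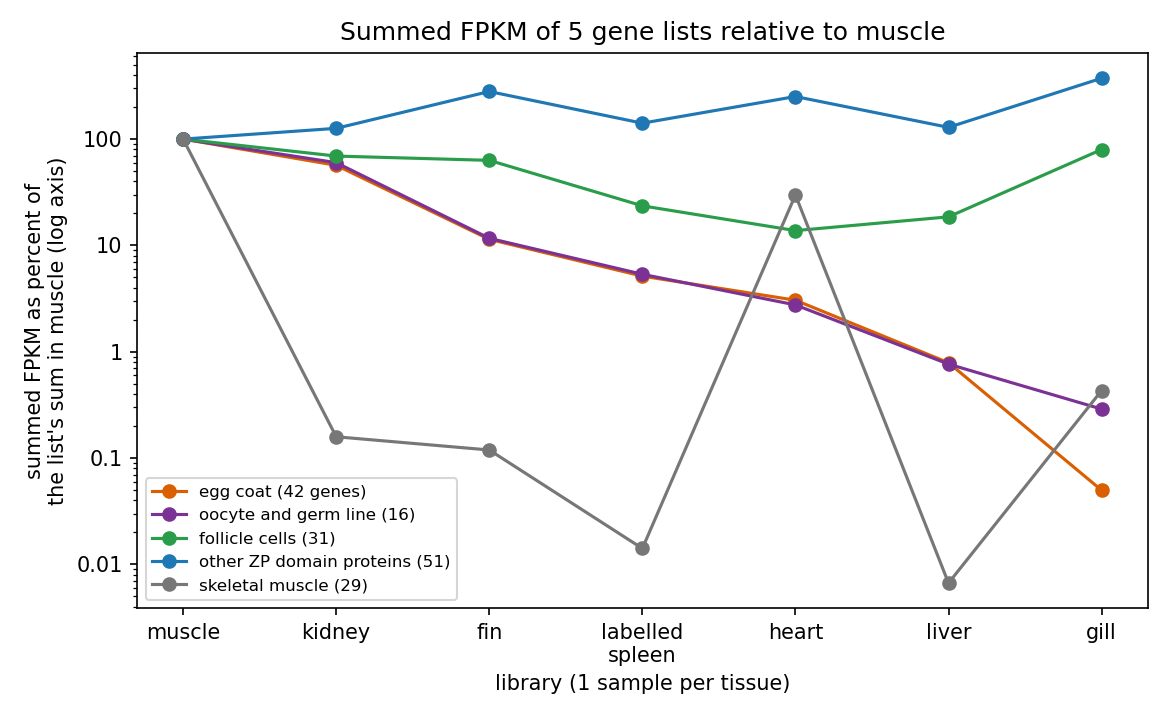
Summed FPKM of 5 gene lists in each library as a percent of the list's sum in muscle (log axis). The egg coat and oocyte lines lie nearly on each other except in gill, at 0.0498% and 0.289% (0.115% without LHX8 Pjo01485). Outside gill the oocyte line mostly reflects both copies of zar1, which give most of that sum. The follicle cell line, other ZP domain proteins and skeletal muscle genes follow other courses. All values are as deposited, without scaling between libraries.

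Other proteins built with the ZP domain, which are not part of the egg coat, were spread over the tissues. Of 51 such genes 17 were highest in gill (23.1% of all genes), 11 in fin (18.9%) and 10 in muscle (24.2%). The counts for fin and muscle lie near those of all genes. The 5-fold rule for muscle and kidney was met by 0 (2.06% of all genes), but it needs at least 10 FPKM in both. The highest muscle value of the list was 8.67 (DMBT1 Pjo09254), so no gene could meet the rule and this count says nothing about their profile. Their summed FPKM was 45.04 in muscle and 56.9 in kidney, with fin at 126, the library labelled spleen at 63.6, heart at 113, liver at 58.1 and gill at 168. The endothelial receptor gene eng (Pjo04895) was 75.9 in heart, 35.6 in gill and 5.44 in muscle. Oit3 (Pjo13227), a liver protein, was 38.6 in the library labelled spleen and 38.9 in liver, and listed at 0 in muscle. Among the DMBT1 genes, mucosal scavenger proteins, the highest loci were 19.1 in gill and 17.4 in kidney.

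Genes that act on the egg coat or at sperm contact showed no count far from that of all genes. Of 25 genes, 4 had their highest level in muscle (24.2% of all genes) and 7 in fin (18.9%), and 0 passed the 5-fold rule (2.06%). SPACA4 (Pjo19149) was 1016 in fin and 19.0 in muscle, and the convertase gene PCSK5 (Pjo04982) was 453 in fin and 0.05 in muscle. The tetraspanin CD9 (Pjo04656), needed on the mouse egg for fusion with sperm, was 140 in muscle, 123 in kidney, 331 in fin and 339 in gill. TGM2 (Pjo07181), a protein crosslinker, was 191 in gill and 0.88 in muscle. Below the most abundant 4, bncr (Pjo18470) was singled out after its values were seen: it encodes Bouncer, the egg membrane protein that lets sperm enter in zebrafish. It was 185 in muscle, 91.7 in kidney, 24.4 in fin, with the library labelled spleen at 8.08, heart at 6.11, liver at 1.49 and gill listed at 0, the order shown by the egg coat genes.

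Yolk precursors, which the liver makes for the egg, were highest in other libraries than the egg coat genes. vtg1 (Pjo21814) was 1.02 FPKM in muscle and 1.24 in kidney, far below the values of liver and the library labelled spleen given above, and the estrogen receptor gene esr1 (Pjo20086) was 13.9 in the library labelled spleen, 22.4 in liver and 0.32 in muscle. A receptor gene for lipoproteins and yolk, VLDLR (Pjo11349), was 75.8 in muscle, 58.5 in kidney, 41.96 in heart and 12.2 in fin.

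Among genes outside the family, those most like it were ranked by the Pearson correlation of log2(FPKM + 1) over the 7 libraries with the median profile of the family, for 1932 genes with a symbol and at least 100 FPKM somewhere. The closest was lce (Pjo10658), at a correlation of 0.9995. This gene is named for a low choriolytic enzyme, a protease that acts on the egg coat at hatching in medaka. It was 415 FPKM in muscle and 238 in kidney, with fin at 48.5, the library labelled spleen at 22.0, heart at 12.4, liver at 3.91 and gill at 0.34. The cyclin ccnb2 (Pjo07891) followed, at 477 in muscle and 325 in kidney, then timp3 (Pjo11552), a metalloproteinase inhibitor, at 781 in muscle and 466 in kidney, and TMEM243 (Pjo18059) at 396 in muscle and 229 in kidney. A correlation of at least 0.99 was found in 60 of the 1932 genes, or 3.11%. Among the 41 members of at least 1 FPKM somewhere it was found in 21, and these members also make up the median profile.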

How the data were processed

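The authors deposited 1 table of FPKM for 7 libraries, to 2 decimals, the smallest nonzero one being 0.01. The submitters' processing notes list RSEM 1.3.3 and HISAT2 2.2.1. Neither build nor annotation is given in the sources used here. RNA was extracted with TRIzol, per the labels. Columns were matched to samples by tissue name. The table was used as deposited, with pandas 2.3.3, numpy 2.4.6, scipy 1.17.1 and, for figures, matplotlib 3.10.9 under Python 3.11.15.

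Members and gene lists were chosen with earlier results of these data known. Named genes were the 2 most abundant of each ZP name, the 10 most abundant, those not highest in muscle, both ends of the ratio of muscle to kidney, those next to 1 FPKM, up to 4 per list and the 4 most alike. Some further genes, such as buc, NANOS3, FIGLA, Nobox, LHX8 and FSHR from the lists, were named outside this rule, with their values known. List genes were matched by symbol, with an optional final a or b. The follicle and yolk lists share the esr2 genes.

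A call needed at least 10 FPKM in the higher library and a fold limit on the FPKM + 1 scale. Shares of all genes refer to 26107 genes. Median-of-ratios scaling used 17448 genes above 0 in all libraries. Alternatives were another pseudocount, minimum, fold limit, scaling and member rule. Sequences are not used here.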

Additional observations from a re-analysis of the deposited data

How the results depend on the processing

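Of 185 alternative values, 165 moved by no more than 1.5 times, 19 moved by more and 1 changed direction. Some of the 165 could not move. The count highest in muscle does not depend on the pseudocount, nor on the library labelled spleen, where no member was highest. The tally is therefore a list of outcomes and no measure of robustness. Median-of-ratios scaling turned the median log2 ratio of fin over the library labelled spleen to -0.79, against 0.97 as deposited, and left 0 of 42 genes in the order of 6 libraries, against 39. Median-of-ratios scaling put the family median at 416 in muscle and 199 in kidney, with fin at 42.6, the library labelled spleen at 76.96, liver at 18.0 and gill at 0.362. It gave median log2 ratios of muscle of 2.47 over the library labelled spleen, 4.05 over heart and 4.36 over liver, and of 1.86 for the library labelled spleen over liver. With a pseudocount of 0.1 the median log2 ratio of muscle over gill was 10.7, against 8.92 on the FPKM + 1 scale. Of 42 genes, 32 were at least 2-fold higher in muscle than kidney after scaling and 33 at a 1.5-fold limit (4.53% of all genes), against 0. The count at least 5-fold higher in muscle and kidney was 0 after scaling, 0 at 10-fold (0.0192% of all genes) and 39 without fin (5.61%), against 27. The count of genes detected in gill was 34 at a minimum of 0.1 and 1 at a minimum of 5, against 12 at 1 FPKM (62.1% of all genes). Shares of all genes at a minimum of 0.1 or 5 were not taken, so these counts have no reference. Alternatives chosen after seeing the data were both values for that order, the oocyte list without LHX8, GNG5 as a member, 1 gene per run of identifiers, and leaving out the library labelled spleen. With GNG5, the gill share was 0.0161%. No paired analysis was possible because each tissue had 1 sample, and for the same reason no replicate could be left out. The unknown depth limits most the values below 1 FPKM in gill and liver.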

Other observations

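A family named for another layer of the egg had its highest sums in other libraries than the egg coat genes. Vmo1 encodes a protein of the outer layer of the vitelline membrane, described in the hen's egg. These genes were singled out after their values were seen. The table held 11 of them, with a summed FPKM of 3.57 in muscle and 51.5 in kidney, with fin at 15.9, the library labelled spleen at 765, heart at 1.15, liver at 590 and gill at 7.6. The most abundant, VMO1 Pjo21538, was 495 in the library labelled spleen, 411 in liver and at most 0.16 elsewhere. Of the 11, 4 were highest in kidney (17.9% of all genes), 1 in fin (18.9%) and none in muscle (24.2%). The others were highest in the library labelled spleen, for which the share of all genes was not taken, so their number has no reference.

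GNG5 (Pjo01356), whose identifier precedes that of ZP3 Pjo01357 and which carries a second description as ZP3, was 157 FPKM in muscle and 125 in kidney, with fin at 120, the library labelled spleen at 12.5, heart at 49.6, liver at 4.93 and gill at 69.4. In gill it was above the sum of the 42 egg coat genes, at 37.6.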
